A study of Mus musculus with 6 samples.

Results

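The miR-15 family is a set of miRNAs, short RNAs that bind Argonaute proteins and repress mRNAs through pairing of their seed, bases 2 to 8 of the mature strand. It was followed here in mouse hearts after ischemia and reperfusion (I/R). The members are the 5 names mmu-miR-15a-5p, mmu-miR-15b-5p, mmu-miR-16-5p, mmu-miR-195a-5p and mmu-miR-497a-5p (mmu for mouse, left out from here on), matched by name in a table of 2009 miRNA names, and all 5 were found. miR-322-5p, which carries the same seed, is not counted as a member and is given beside them.

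The series compared 3 I/R hearts with 3 sham hearts, all from male mice, with strain and age not given in the sources used here. Per the labels, every heart was perfused outside the body on a Langendorff system. In I/R hearts Tomas cardioplegia, an arresting solution, halted the beat for 30 min, and 1 h of reperfusion followed, while sham hearts were not arrested. Both groups therefore share the isolation and the perfusion, and no unperfused heart was analysed here. The labels call the hearts biological replicates, and p-values measure the spread between these samples.

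miRNAs of this family repress cell-cycle genes, among them cyclins and the checkpoint kinase Chek1, and are known as brakes on proliferation. In mouse heart, miR-195a rises after birth as heart muscle cells leave the cell cycle, and inhibition of the family in newborn and adult mice has been linked to more dividing heart muscle cells and better recovery after ischemia. miR-15a and miR-16-1 are also known as tumour suppressors that are lost in chronic lymphocytic leukaemia.

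The mature sequences are shown to make plain what the members share and where they differ, with the seed in capitals. RefSeq (GRCm38.p6) held all 5.
miR-16-5p: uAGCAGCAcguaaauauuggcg
miR-195a-5p: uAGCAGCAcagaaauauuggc
miR-497a-5p: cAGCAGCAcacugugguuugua
miR-15a-5p: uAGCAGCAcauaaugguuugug
miR-15b-5p: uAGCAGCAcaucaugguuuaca
miR-322-5p: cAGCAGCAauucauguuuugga

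All 5 members carry one seed and are identical from base 2 to base 9. Counted from the 5′ end without gaps, miR-16-5p and miR-195a-5p differ at 2 of 21 positions, 10 and 11. miR-15a-5p and miR-15b-5p differ at 4 of 22 positions, while miR-16-5p and miR-497a-5p differ at 11 of 22. miR-15a-5p differs from miR-497a-5p at 5 of 22 positions and from miR-16-5p at 6 of 22. Past the seed miR-16-5p and miR-195a-5p are thus the nearest pair, while miR-15a-5p lies about as near to miR-16-5p as to miR-497a-5p. How the authors assigned reads that match several names is not given in the sources used here, so levels of near-identical names are uncertain where reads were short.

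The members come from 3 clusters of 2 hairpins each, given here in GRCm38. On the minus strand of chromosome 14, Mir16-1 (61631880 to 61631972) and Mir15a (61632027 to 61632110) lie 54 bases apart within the long noncoding gene Dleu2. Mir16-1 overlaps an exon of an annotated Dleu2 transcript. The span of the mature strands of Mir15a (61632038 to 61632096) overlaps no Dleu2 exon, and the ends of its hairpin were not checked. On the plus strand of chromosome 3, Mir15b (69009772 to 69009835) and Mir16-2 (69009902 to 69009996) lie 66 bases apart in an intron of Smc4, which encodes a condensin subunit that compacts chromosomes in mitosis. On the plus strand of chromosome 11, Mir497 (70234717 to 70234800) and Mir195a (70235042 to 70235135) lie 241 bases apart, with no other annotated gene than miRNAs across them. Mature miR-16-5p is the same from its 2 hairpins, so its level is a sum over chromosomes 14 and 3.

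Libraries held 7874103 to 9197869 reads on named miRNAs, recovered from the deposited values, and levels are reads per 1000000 such reads (RPM). At these depths 3 reads equal 0.326 to 0.381 RPM. The tissue label was checked with miRNAs of heart muscle (miR-1a-3p, miR-133a-3p, miR-208a-3p and miR-499-5p), which together held 35.8% to 38.3% of the reads in I/R hearts and 38.5% to 39.0% in sham hearts, all 4 above 0. The 3 red blood cell miRNAs held 0.143% to 0.179% in I/R and 0.129% to 0.160% in sham hearts. Nearly all of this was miR-486a-5p, with means of 1553 RPM in I/R and 1456 RPM in sham hearts. miR-451a was at 2.75 RPM in I/R and 4.72 RPM in sham hearts, and miR-144-3p at 0.25 RPM in I/R and 0.45 RPM in sham hearts. The share thus does not speak for these low names. The 5 leukocyte miRNAs held 0.0119% to 0.0122% in I/R and 0.0109% to 0.0144% in sham hearts. The 2 endothelial names held 2.58% to 3.18% in I/R and 2.49% to 2.75% in sham hearts, nearly all of it miR-126a-3p. The 4 names of smooth muscle and fibroblasts held 4.28% to 5.17% in I/R and 3.68% to 4.84% in sham hearts. Nearly all of this was miR-143-3p, with means of 44146 RPM in I/R and 40066 RPM in sham hearts. Means of miR-199a-3p (1731 and 1446 RPM) and miR-214-3p (45.6 and 33.1 RPM) were also higher in I/R than in sham hearts. That of miR-145a-5p was lower, at 39.8 RPM in I/R and 50.3 RPM in sham hearts. In bulk hearts, fewer cells of a type and less RNA per cell cannot be told apart, and the part of cell makeup in the results below was not tested.

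The family was a small part of the heart miRNAs, and its level overlapped between the groups. Its summed level was 277, 294 and 294 RPM in I/R replicates 1 to 3 and 266, 324 and 255 RPM in sham replicates 1 to 3, a mean of 288 ± 9.55 RPM in I/R hearts and 281 ± 37.3 RPM in sham hearts (SD, n = 3 each). The highest and the 2 lowest libraries were sham, and every I/R heart lay between them. The sum made up 0.0277% to 0.0294% of the reads in I/R and 0.0255% to 0.0324% in sham hearts. miR-16-5p and miR-195a-5p together held 94.0 ± 0.36% of the family sum in I/R and 94.5 ± 0.84% in sham hearts (SD, n = 3 each).

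The members had a clear order of levels, except at its low end. By mean level over the 6 libraries, miR-16-5p stood in place 86 of the 2009 names, miR-195a-5p in place 126, miR-497a-5p in place 237, miR-15b-5p in place 284 and miR-15a-5p in place 300. In each library miR-16-5p lay above miR-195a-5p, and miR-195a-5p above miR-497a-5p. The lowest value of miR-497a-5p, 7.28 RPM, was close to the highest of miR-15b-5p, 7.01 RPM. The range of miR-15a-5p, 2.35 to 4.52 RPM, lay inside that of miR-15b-5p, 2.07 to 7.01 RPM, so their order is not settled by these libraries.

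miR-16-5p, the most abundant member and the one made from 2 clusters, did not move beyond the spread between libraries. It was at 178, 190 and 188 RPM in I/R replicates 1 to 3, from 1463 to 1554 reads, and at 180, 212 and 173 RPM in sham replicates 1 to 3, from 1403 to 1873 reads. The I/R libraries lay inside the range of the sham libraries. Means were 186 ± 6.20 RPM in I/R hearts and 188 ± 20.5 RPM in sham hearts (SD, n = 3 each). limma, fitted over all names on log2(RPM + 1), gave a log2 fold change of -0.016 (SE 0.12, 95% interval -0.28 to 0.25, adjusted p = 0.970), and the sign turned without I/R replicate 1, without sham replicate 2 and with array weights.

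miR-195a-5p, the member known for its rise in the heart after birth, was at 81.7, 85.1 and 89.4 RPM in I/R replicates 1 to 3 and at 72.5, 91.2 and 68.3 RPM in sham replicates 1 to 3. All 3 I/R hearts lay above sham replicates 1 and 3, but sham replicate 2 was the highest of all 6. Means were 85.4 ± 3.84 RPM in I/R and 77.3 ± 12.2 RPM in sham hearts (SD, n = 3 each). The limma log2 fold change of 0.15 (SE 0.14, interval -0.16 to 0.47, adjusted p = 0.742) did not pass the threshold of 0.05. It was 0.28 without sham replicate 2 (adjusted p = 0.465) and 0.069 without sham replicate 3 (adjusted p = 0.890), and neither passed. Scaling moved it to 0.050 with median-ratio, 0.075 with TMM (edgeR's trimmed mean of M-values) and 0.0085 with quantile normalization.

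miR-497a-5p, the cluster partner of miR-195a, followed the same order of libraries in sham hearts at a lower level. It was at 8.91, 10.3 and 9.91 RPM in I/R replicates 1 to 3 and at 8.15, 11.6 and 7.28 RPM in sham replicates 1 to 3, from 59 to 103 reads over all libraries. Again sham replicate 2 was the highest library and the groups overlapped. The limma log2 fold change was 0.12 (SE 0.19, interval -0.31 to 0.54, adjusted p = 0.826), and it was -0.011 without sham replicate 3 and 0.29 without sham replicate 2.

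miR-15b-5p, encoded in Smc4, was at 4.76, 3.67 and 3.05 RPM in I/R replicates 1 to 3 and at 2.07, 7.01 and 3.46 RPM in sham replicates 1 to 3. The lowest and the highest library were both sham. The reads behind these values were few, 24 to 39 in I/R and 19 to 62 in sham hearts. The limma log2 fold change was -0.0026 (SE 0.33, interval -0.75 to 0.75, adjusted p = 0.996), and without sham replicate 2 it was 0.37. Its interval is the widest of the 5 members and leaves room for changes of up to 0.75 on the log2 scale in either direction.

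miR-15a-5p, the Dleu2 member known from leukaemia, was the one member whose groups lay apart. It was at 3.42, 4.52 and 3.56 RPM in I/R replicates 1 to 3, from 28, 37 and 28 reads, and at 2.94, 2.37 and 2.35 RPM in sham replicates 1 to 3, from 27, 21 and 19 reads. Every I/R heart lay above every sham heart, by a narrow margin between I/R replicate 1 and sham replicate 1. Means were 3.83 ± 0.60 RPM in I/R hearts and 2.55 ± 0.33 RPM in sham hearts (SD, n = 3 each). The 95% Wilson interval, which covers counting error only, ran from 2.36 to 4.94 RPM in I/R replicate 1 and from 2.02 to 4.27 RPM in sham replicate 1, so these 2 libraries are not separable at this depth.

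The limma log2 fold change of miR-15a-5p was 0.44 (SE 0.19, interval 0.02 to 0.87). At an unadjusted p of 0.0435 it did not pass after Benjamini-Hochberg adjustment over all 409 names tested, with limma adjusted p = 0.598, or 0.418 with the replicate number as a block. The size depended on the pseudocount, with 0.56 at 0.1 RPM and 0.14 at 10 RPM in place of 1 RPM. In count models on the recovered reads the log2 fold change was 0.47 in edgeR (adjusted p = 0.735) and 0.49 in DESeq2 (adjusted p = 0.954).

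**Figure D1:**
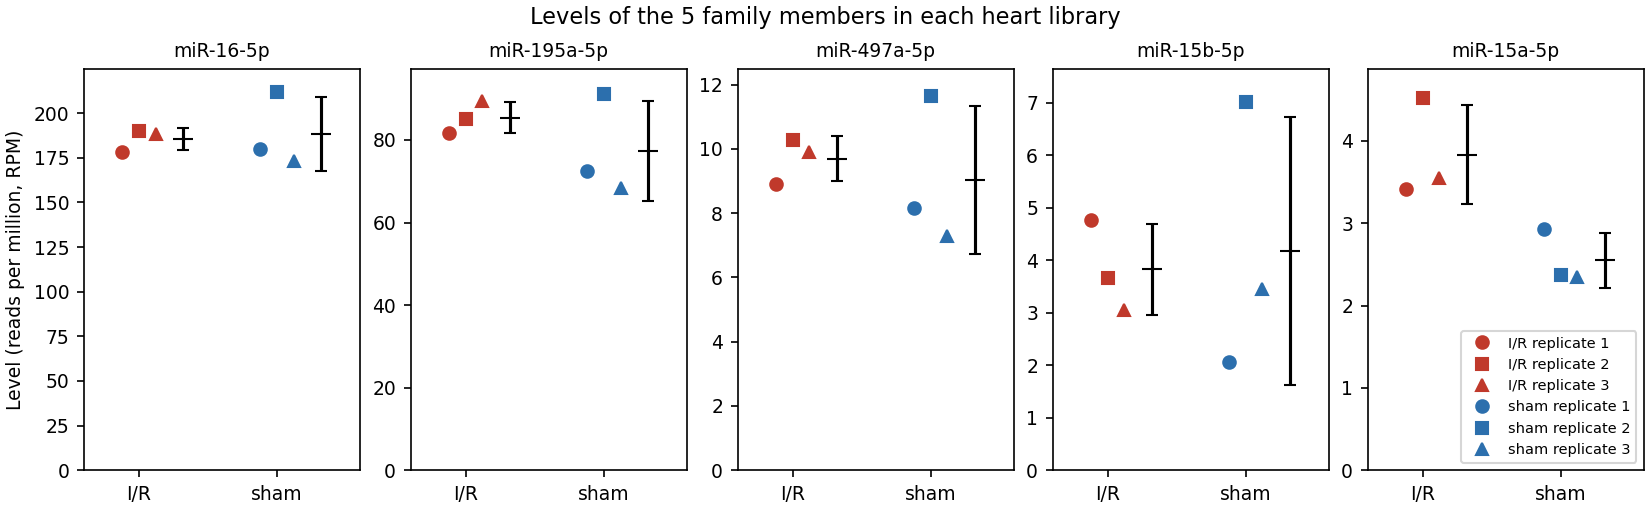
Level in RPM (vertical axis, from 0, a scale per panel) of each member in the 3 I/R and the 3 sham libraries, with the mean and SD beside each group. Sham replicate 2 is the highest library for miR-16-5p, miR-195a-5p, miR-497a-5p and miR-15b-5p, and only miR-15a-5p, at 3.42 to 4.52 RPM in I/R and 2.35 to 2.94 RPM in sham hearts, has groups that do not overlap.

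Read against all names, the family did not stand out. All 5 members passed the filter on low values, which asked for 1 RPM or more on average and for reads in 3 or more libraries. Of these 5, 0 passed in limma, where 0.0% of the 409 names tested did, and 1 had an unadjusted p under 0.05, on the higher side, where 7.33% of all names did, 7.09% on the higher and 0.244% on the lower side. edgeR and DESeq2 also called 0 of the 5. Over all names limma called 4 with the replicate number as a block, none of them a member, edgeR called 0 and DESeq2 called 2. One member had every I/R heart above every sham heart, as 11.2% of all names did, and 0 had every I/R heart below, as 3.91% did. The median log2 fold change was 0.12 over the members and 0.10 over all names. Of the members 3 had positive and 2 negative values, against 287 and 122 of all names. That split of all names was 209 and 200 with median-ratio scaling, 232 and 177 with TMM and 200 and 209 with quantile normalization.

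The centre of all fold changes depended on the scaling. It shifted by -0.10 with median-ratio scaling, -0.07 with TMM, -0.07 with totals taken without the 10 most abundant names and -0.11 with quantile normalization. Measured from the median of all names, miR-15a-5p stood at 0.34 on the log2 scale, miR-195a-5p at 0.05, miR-497a-5p at 0.01, miR-15b-5p at -0.10 and miR-16-5p at -0.12. The share of the heart muscle list was 37.2 ± 1.29% in I/R hearts and 38.7 ± 0.23% in sham hearts (SD, n = 3 each), and its part in the fold changes was not tested. Nearly all of this share was miR-1a-3p, at 365121 RPM in I/R and 380232 RPM in sham hearts. Means in I/R and sham hearts were 919 and 1231 RPM for miR-133a-3p and 157 and 169 RPM for miR-208a-3p. For miR-499-5p they were 5679 RPM in I/R and 5602 RPM in sham hearts.

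**Figure D2:**
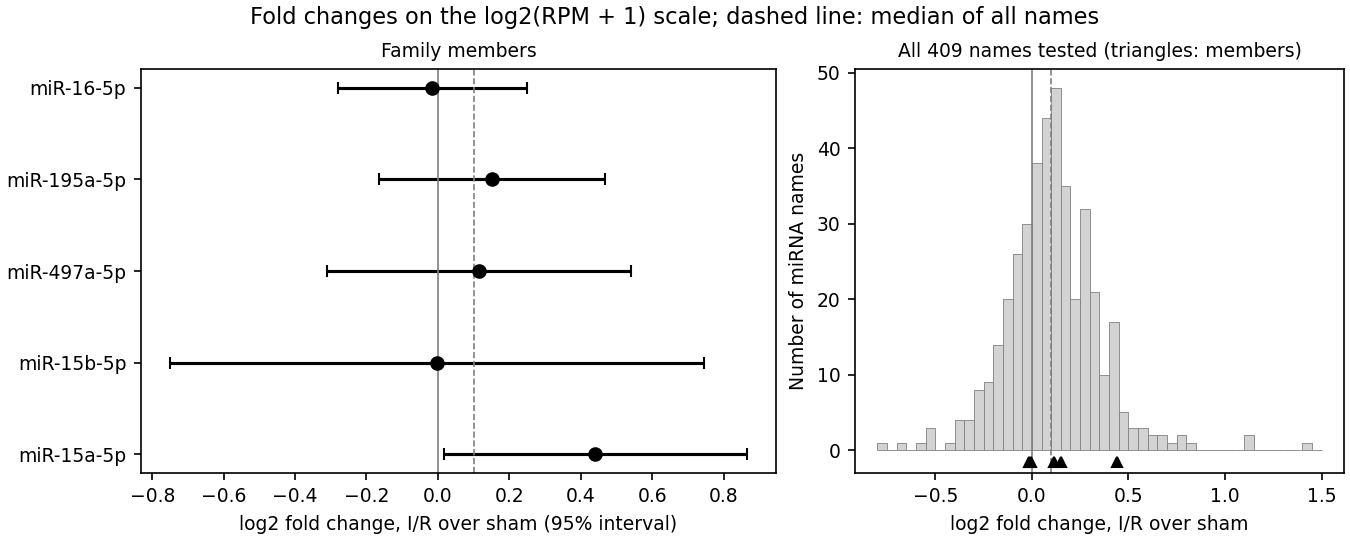
Left, log2 fold change of each member, I/R over sham, with its 95% interval from limma (horizontal axis, log2 units). Right, the number of names (vertical axis) at each log2 fold change, with triangles for the members; the dashed line marks the median of all names, 0.10, and miR-15a-5p at 0.44 is the member farthest from it.

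Within a group, the spread between libraries was set beside what counting alone gives at the group's mean number of reads. The coefficient of variation of miR-16-5p was 3.34% in I/R hearts, where counting gives 2.58%, and 10.9% in sham hearts, where counting gives 2.47%. That of miR-195a-5p was 4.495% in I/R, against 3.81% from counting, and 15.8% in sham hearts, against 3.85%. For miR-497a-5p it was 7.29% in I/R hearts, below the 11.3% from counting, and 25.5% in sham hearts, above the 11.3% from counting. miR-15b-5p had the widest spread, 22.6% in I/R against 18.0% from counting and 61.0% in sham hearts against 16.6%, where sham replicate 1 had 19 reads and sham replicate 2 had 62. miR-15a-5p varied less than counting gives in both groups, by 15.7% in I/R against 18.0% and by 13.0% in sham hearts against 21.2%. With 3 libraries a group, these spreads are themselves imprecise.

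Ratios between members remove what a library shares across its names. The chromosome 11 partners miR-195a-5p and miR-497a-5p, made from hairpins of one cluster, held a steadier ratio than miR-16-5p with miR-15a-5p or miR-15b-5p. It was 9.18, 8.29 and 9.03 in I/R replicates 1 to 3 and 8.89, 7.83 and 9.37 in sham replicates 1 to 3. The groups overlapped, and the lowest ratio of each group was in replicate 2. miR-15a-5p and miR-15b-5p had fewer reads than miR-497a-5p in each library, so counting error weighs more on their ratios. Steadiness was not particular to cluster partners. The SD of the log2 ratio was 0.07 in I/R and 0.10 in sham hearts here. It was 0.04 in I/R and 0.06 in sham hearts for miR-16-5p to miR-195a-5p.

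The ratio of miR-16-5p to miR-195a-5p, whose mature strands differ at 2 positions, was lower in each I/R heart. It was 2.18, 2.23 and 2.11 in I/R replicates 1 to 3 and 2.48, 2.32 and 2.54 in sham replicates 1 to 3, with means of 2.17 ± 0.06 in I/R and 2.45 ± 0.11 in sham hearts (SD, n = 3 each). As shares of the family sum, miR-195a-5p held 29.0% to 30.4% in I/R and 26.8% to 28.2% in sham hearts, and miR-16-5p held 64.0% to 64.7% in I/R and 65.4% to 68.0% in sham hearts. The log2 ratio differed by -0.17 between I/R and sham hearts, and by -0.20 to -0.14 with each library left out in turn. It was chosen after its values were seen and was not tested.

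Against its cluster partner miR-16, miR-15a-5p made up more of the reads in I/R hearts. miR-16-5p outnumbered it 52.3, 42.0 and 52.9 times in I/R replicates 1 to 3 and 61.3, 89.2 and 73.8 times in sham replicates 1 to 3. miR-16-5p outnumbered miR-15b-5p 37.5 to 61.8 times in I/R and 30.2 to 87.1 times in sham hearts, and these ranges overlapped. Because miR-16-5p comes from both clusters, neither ratio compares partners of a single transcript. Of the 10 pairs of members, 2 had log2 ratios that lay apart between the groups, and of all 83436 pairs of the names tested 11.3% did.

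**Figure D3:**
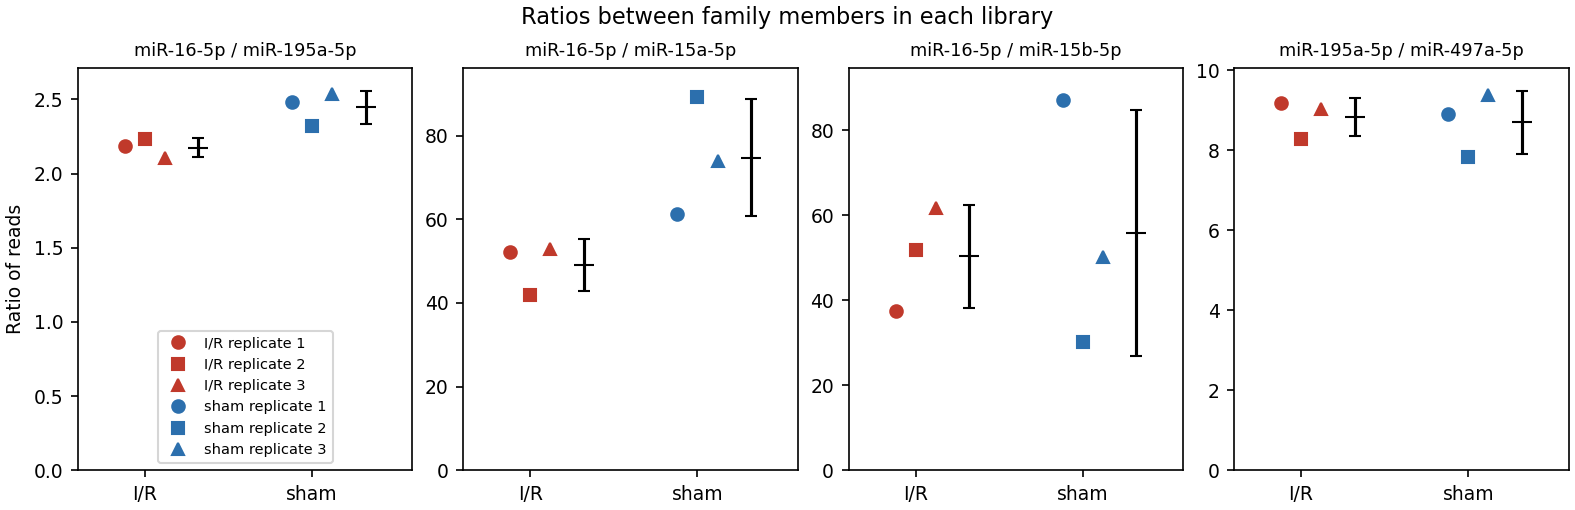
Ratio of reads between members (vertical axis, from 0, a scale per panel) in the 3 I/R and the 3 sham libraries, with the mean and SD beside each group. The ratios of miR-16-5p to miR-195a-5p (2.11 to 2.23 in I/R, 2.32 to 2.54 in sham) and to miR-15a-5p lie apart between the groups, while the other 2 overlap.

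A hairpin yields 2 strands, of which one usually enters Argonaute and the other is degraded, and in this family the 5p strand is the one named as functional. The hairpin of miR-195a is shown because its strands were both abundant, with the 5p and then the 3p strand in capitals (RefSeq, GRCm38.p6, chr11:70235042-70235135, plus strand).
Mir195a: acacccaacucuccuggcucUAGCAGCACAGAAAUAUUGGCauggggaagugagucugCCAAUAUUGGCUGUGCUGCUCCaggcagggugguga

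The 3p strand of miR-195a exceeded the 5p strand in all 6 libraries. miR-195a-3p was at 139, 145 and 180 RPM in I/R replicates 1 to 3 and at 129, 139 and 125 RPM in sham replicates 1 to 3, which was 1.70 to 2.02 times the reads of miR-195a-5p in I/R and 1.52 to 1.83 times in sham hearts. Its groups lay apart by less than 1 RPM, between I/R replicate 1 and sham replicate 2. The limma log2 fold change was 0.23 (SE 0.13, adjusted p = 0.636), and it was 0.12 without I/R replicate 3. Scaling moved it to 0.13 with median-ratio, 0.15 with TMM and 0.053 with quantile normalization. Its own seed, shown in capitals, is unlike that of the family.
miR-195a-3p: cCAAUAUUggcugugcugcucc

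The hairpins of miR-15a and miR-497a gave more reads of the 5p than of the 3p strand. Reads of miR-16-5p, which comes from 2 hairpins, exceeded those of miR-16-1-3p, so the strand balance of the Mir16-1 hairpin alone is not known. For miR-16 the reads of the 3p strand tell the clusters apart, since the 3p strands of Mir16-1 and Mir16-2 differ. miR-16-1-3p, from chromosome 14, had 134 to 164 reads in I/R and 134 to 187 reads in sham hearts, or 18.8 ± 1.59 RPM in I/R and 18.0 ± 2.76 RPM in sham hearts (SD, n = 3 each). miR-16-2-3p, from chromosome 3, had 0 to 2 reads per library. Over all libraries 927 of 933 such reads, 99.4%, were miR-16-1-3p (95% Wilson interval 98.6% to 99.7%). This is the share of the 3p strands and does not give the share of miR-16-5p from each cluster.
miR-16-1-3p: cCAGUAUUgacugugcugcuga
miR-16-2-3p: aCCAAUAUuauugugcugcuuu

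Both strands of miR-15b were close in number, with 0.86 to 1.77 reads of the 5p strand for each of the 3p strand over the 6 libraries. miR-15b-3p was at 4.03, 2.32 and 1.78 RPM in I/R replicates 1 to 3 and at 2.39, 3.96 and 2.84 RPM in sham replicates 1 to 3. The 3p strands of miR-15a and miR-497a had few reads, with 0 to 4 and 0 to 5 reads per library, and neither passed the filter. In the 5p and 3p strands of all member hairpins together, the 5p strands held 59.5% to 63.8% of the reads in I/R and 63.8% to 66.3% in sham hearts, ranges that met at their edge.

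The balance of the strands was tested in limma as the log2 ratio of 5p to 3p over 114 hairpins with both strands kept. For miR-195a it was -0.84 ± 0.14 in I/R and -0.76 ± 0.14 in sham hearts, for miR-16 with miR-16-1-3p 3.24 ± 0.15 in I/R and 3.32 ± 0.07 in sham hearts, and for miR-15b 0.41 ± 0.19 in I/R and 0.25 ± 0.42 in sham hearts (SD, n = 3 each). The limma differences between I/R and sham hearts were -0.08, -0.09 and 0.16 with adjusted p = 0.943 for all 3. Of all 114 hairpins 0.0% passed in limma, while 6.14% had an unadjusted p under 0.05, none of them a family hairpin.

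**Figure D4:**
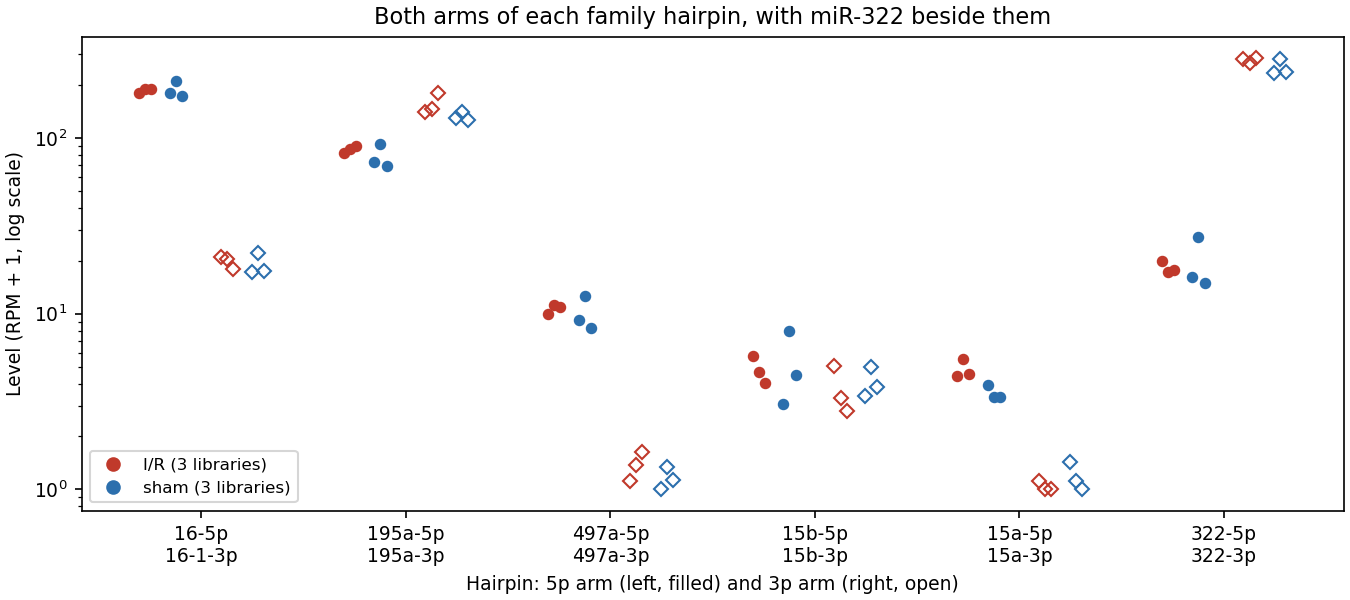
Level in RPM + 1 (vertical axis, log scale) of the 5p strand (filled, left) and the 3p strand (open, right) of each hairpin, with 3 I/R and 3 sham libraries each. The 3p strand lies above the 5p strand for miR-195a and miR-322 and below it for miR-497a and miR-15a, and the strands of miR-15b overlap. For miR-16-1 the 5p values are miR-16-5p summed over all its hairpins, and they lie above the 3p values. The strand balance of the miR-16-1 hairpin alone is therefore not shown.

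Other names with the family seed added little. RefSeq held 5 such names outside the 5 members. miR-322-5p, the mouse counterpart of human miR-424, was at 18.9, 16.4 and 16.8 RPM in I/R replicates 1 to 3 and at 15.2, 26.2 and 14.0 RPM in sham replicates 1 to 3, where sham replicate 2 was again the highest (limma log2 fold change -0.03, SE 0.23, adjusted p = 0.968). In a total of the members and miR-322-5p, it would hold 5.29% to 6.38% in I/R and 5.20% to 7.49% in sham hearts. Its 3p strand was far more abundant, at 266 to 284 RPM in I/R and 233 to 280 RPM in sham hearts. miR-195b had 0 to 3 reads per library, and miR-6342, miR-6353 and miR-6419 were at 0 in all 6. The hairpin of miR-497b lies opposite that of miR-497a, and miR-497b had 0 to 4 reads per library. Its mature strand does not overlap miR-497a-5p but overlaps miR-497a-3p, which held 13 of their 21 reads, 61.9% (95% Wilson interval 40.9% to 79.2%), so the low counts of that 3p strand are uncertain.

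The family sum was set beside the 113 other names with a mean of at least 100 RPM, by the root mean square difference of log2(RPM + 1), centred on its mean, over the 6 libraries. The nearest were miR-126a-5p (0.04 on the log2 scale), miR-126b-3p (0.05) and miR-450a-5p (0.05), against a median of 0.17 over the 113. miR-126a-5p, an endothelial strand, was at 480, 511 and 504 RPM in I/R replicates 1 to 3 and at 467, 532 and 452 RPM in sham replicates 1 to 3. The miR-126a and miR-126b hairpins lie on opposite strands of one locus, so these 2 names may share reads. miR-450a-5p, encoded on the X chromosome, was at 159, 174 and 164 RPM in I/R and 151, 172 and 143 RPM in sham hearts. Each of the 3, like the family sum, had its lowest value in sham replicate 3. They were picked for likeness to the sum over these same 6 libraries, so this is not a separate finding.

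Other miRNAs known from rodents to act on the division of heart muscle cells were counted in the same fit. Of 19 names reported to promote it, 11 were kept, 0 passed in limma, and 8 had positive and 3 negative log2 fold changes, with a median of 0.12 beside 0.10 over all names. Of the 11, 1 (miR-25-3p) had an unadjusted limma p under 0.05, as 7.33% of all names did. It was also the 1 name with every I/R heart above every sham heart, as 11.2% of all names had. The most abundant were miR-199a-3p (1731 ± 138 RPM in I/R and 1446 ± 228 RPM in sham hearts), miR-25-3p (404 ± 17.4 RPM in I/R and 343 ± 9.51 RPM in sham hearts) and miR-92a-3p (249 ± 18.4 RPM in I/R and 222 ± 30.3 RPM in sham hearts; SD, n = 3 each). Of 8 names reported to restrain it, 7 were kept, 0 passed, and 3 had positive and 4 negative values, with a median of -0.01. Among the 7, 0 had an unadjusted limma p under 0.05, and 1 (miR-1a-3p) had every I/R heart below every sham heart, as 3.91% of all names did. The most abundant were miR-1a-3p (365121 ± 12373 RPM in I/R and 380232 ± 2375 RPM in sham hearts), miR-30a-5p (19319 ± 897 RPM in I/R and 19469 ± 838 RPM in sham hearts) and let-7i-5p (13942 ± 1082 RPM in I/R and 13281 ± 551 RPM in sham hearts). Beside these abundant restraining miRNAs, the whole miR-15 family stood at 288 RPM in I/R and 281 RPM in sham hearts.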

How the data were processed

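The authors deposited 1 signal value per mature miRNA and library in a table named as FPKM. The submitters' processing notes name mm10, fastp 0.23.0 and bcl2fastq 2.19.1.403. No source used here gives the aligner, miRNA annotation or treatment of reads matching several names. Per the labels, the kits were for poly(A) mRNA, while the sample titles read miRNA-seq. The 6 deposited signal columns had equal totals, and every value was a whole multiple of its column's smallest (tolerance 0.01 reads, 100% of values). Reads per 1000000 per kilobase, with a constant length of 23.0 nt for all names, would give such values and totals. Whole reads were recovered and expressed as RPM.

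limma 3.58.1 (R 4.3.3), with a mean-variance trend, was fitted on log2(RPM + 1) over the 409 names kept, two-sided, with Benjamini-Hochberg adjustment over all 409. The fit was tried on simulated data with changes far larger than those of the members, which cannot show whether changes of their size would be found. Fold changes on this scale understate those of low miRNAs. Alternatives covered the pseudocount, filter, scaling, limma options, edgeR 4.0.16, DESeq2 1.42.0, each library left out and the replicate number as a block. Deviations from the group means correlated at 0.14 to 0.28 between libraries of the same number and at -0.19 to 0.07 between others. The labels do not give the numbers as pairs. The main fit was unpaired, and the numbers entered as a block in an alternative only. Reads of miR-497a-3p and miR-497b, whose mature strands overlap, were compared by share. A planned chi-square test of miR-497a-5p against miR-497b was not run, since miR-497b had 0 to 4 reads and the mature strands do not overlap. Members and lists were chosen with earlier results of these data known. The text names the members, their other strands, other names with the seed or an overlapping hairpin, the 3 names nearest to the family sum and the 3 most abundant names of each cell-division list.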

Additional observations from a re-analysis of the deposited data

How the results depend on the processing

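miR-15a-5p (19 alternatives, 0.14 to 0.56 on the log2 scale) and miR-195a-5p (20 alternatives, 0.0085 to 0.28) kept a positive sign and did not pass, with adjusted p of at least 0.418. The replicate block changed no call for a member, but over all names it called 4, against 0 without it, while DESeq2 called 2, the fit with no filter 1, and fits with a library left out 0 to 1, the 1 without sham replicate 2. miR-15b-5p turned to 0.025 with a pseudocount of 0.1 RPM and 0.24 with array weights, and ran from -0.32 to 0.37 with each library left out. miR-16-5p turned to 0.028 with array weights and ran from -0.073 to 0.071 with libraries left out. miR-497a-5p turned to -0.012 in edgeR and ran from -0.011 to 0.29 with libraries left out.

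miR-16-1-3p, at 0.07, turned to -0.026 with median-ratio scaling, -0.0033 with TMM, -0.041 in edgeR and -0.025 in DESeq2. Array weights turned miR-15b-3p to 0.069 and miR-322-5p to 0.18, and with libraries left out these ran from -0.40 to 0.027 and from -0.20 to 0.23. The strand balance of miR-195a turned to 0.013 with array weights and ran from -0.13 to 0.0013 with libraries left out, and that of miR-15b from -0.044 to 0.38. The family sum differed by -0.060 to 0.15 on the log2 scale over 9 alternatives. The log2 ratio of miR-16-5p to miR-15a-5p, -0.46, was -0.15 with a pseudocount of 10 RPM. No hairpin passed the strand-balance test in any of 17 alternatives. With a filter of 10 RPM, miR-15a-5p, miR-15b-5p and miR-497a-5p gave no value. Depth limits miR-15a-5p and miR-15b-5p, with 19 to 62 reads per library. The causes of these changes were not tested.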
